A study of Pleurotus ostreatus with 4 samples.

Results

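The sequences described here were abundant in the vegetative mycelium of the oyster mushroom Pleurotus ostreatus and at least 16-fold lower in every fruiting stage sampled. They were the sequences whose log2(FPKM + 1) in mycelium exceeded the highest of the 3 fruiting values by at least 4. The rule picked 131 of the 51131 sequences listed, and 3.32% of the 3946 sequences with at least 15 FPKM in mycelium, the lowest value it admits. Since the members were chosen by their values in mycelium and in the highest fruiting stage, their differences from mycelium are given as a description, with no test. FPKM is a count of sequenced fragments scaled by the length of the sequence and by the fragment total of the library.

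Oyster mushrooms are white-rot fungi. The mycelium is the feeding body, a net of hyphae that grows through wood or straw, secretes enzymes onto it and takes up what they release. Fruiting begins when hyphae aggregate into a primordium, which draws its nutrients from the mycelium beneath and grows into the stalk and cap. Which of these functions the members serve cannot be read from the data, since the identifiers are contig and unigene numbers with no gene name or description.

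All libraries came from the wild-type strain P739, with 1 library per developmental stage. The stages were mycelium, primordium, young fruit body (called the young stage) and mature fruit body (the mature stage), and 3 values given as afterwards stand for the last 3 in that order. Material was frozen on dry ice and extracted with Trizol before HiSeq sequencing. How many mushrooms or cultures went into a library, and how the mycelium was grown, was not given in the sources used here. With 1 library per stage, no difference could be set against a spread between replicates, and culture conditions of the mycelium cannot be told apart from its stage. The fragment totals behind the FPKM values, recovered from their steps, lay between 15048631 and 15691317, so depth was nearly even. Ranges in parentheses after a fold or ratio are 95% exact binomial intervals from these fragments, and they cover counting error only. A lower value may come from less RNA per cell or from fewer cells that hold it, which bulk tissue cannot separate.

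The members took 8.29% of all fragments in mycelium (95% Wilson interval 8.28% to 8.30%). Their share was 0.0486% in the primordium, 0.0503% at the young stage and 0.0583% at the mature stage. The sum rested heavily on Unigene4844 (524 nt), which held 36.7% of the members' mycelium fragments. Without it the remaining 130 took 5.25% of the mycelium library, and 0.0461%, 0.0459% and 0.0542% of the fruiting libraries in order of stage. The fruiting totals were spread over more members. The 3 with most fragments in a library held 53.8% of the members' total in mycelium, 19.0% in the primordium, 21.4% at the young stage and 27.0% at the mature stage.

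Members were found at all abundances but made up a larger part of the most abundant sequences. Of the 58 sequences with at least 1000 FPKM in mycelium 13 were members, or 22.4%. From 100 to 1000 FPKM they were 53 of 964, or 5.50%, and from 15 to 100 FPKM 65 of 2924, or 2.22%. The pseudocount of 1 makes the rule harder to meet at low FPKM, so these shares are in part set by it. Of the 20 sequences highest in mycelium 8 were members, whereas 0 of the 1000 highest sequences of any fruiting library were. The highest rank that a member reached was 2028 in the primordium, 1321 at the young stage and 1056 at the mature stage. The rule keeps every fruiting value of a member far below its mycelium value, so these low fruiting ranks are in large part set by it.

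Typical members stood near 1.5 FPKM in the fruiting stages. Their median was 103 FPKM in mycelium (range 16.5 to 58060), 1.46 in the primordium (0 to 47.6), 1.51 at the young stage (0 to 83.5) and 1.59 at the mature stage (0 to 105). Over all 3946 sequences of at least 15 FPKM in mycelium the medians were 46.6, 45.2, 45.01 and 44.6 FPKM. The members were low rather than absent in the fruiting libraries, as 125 of the 131 had fragments in all 3 fruiting stages. Where these fragments came from was not tested. Only 33 members were under 1 FPKM in all 3 stages, and 20 reached 5 FPKM in at least 1. The highest fruiting value lay 4 to 5 below mycelium on the log2(FPKM + 1) scale for 67 members, 5 to 6 below for 31, 6 to 7 below for 16, 7 to 8 below for 8 and at least 8 below for 9.

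**Figure D1:**
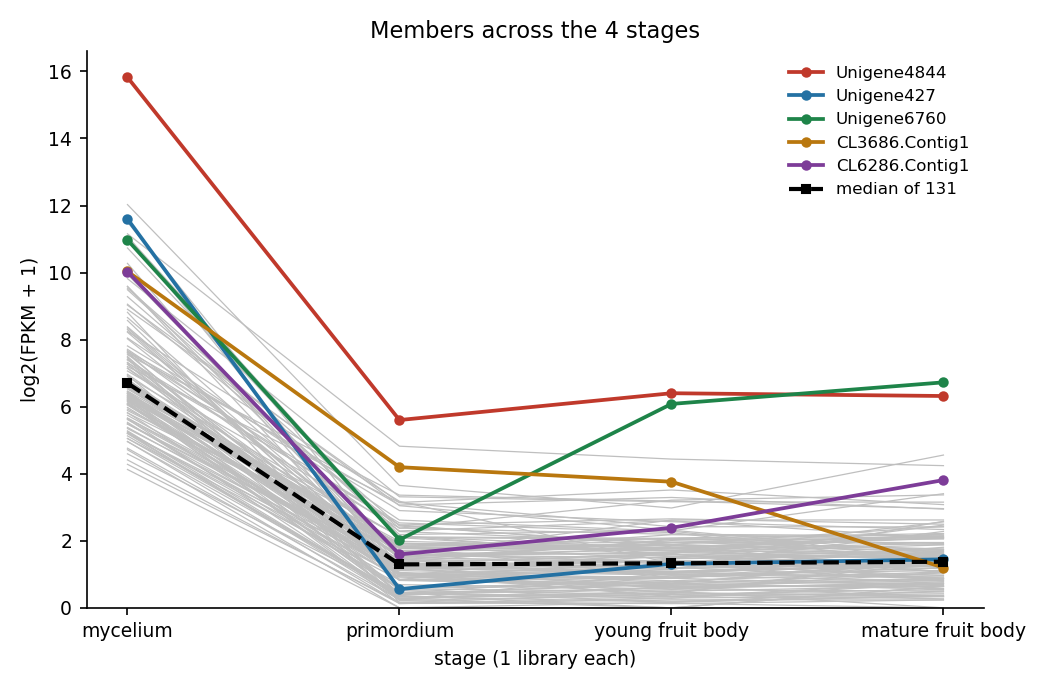
Level of each of the 131 members, as log2(FPKM + 1), in the 4 libraries in order of stage, with 1 grey line per member, 5 members in colour and the median dashed. The lines drop steeply to primordium, and the medians are then 1.46, 1.51 and 1.59 FPKM, on a scale that compresses changes at so low a level, while Unigene6760 climbs again and CL3686.Contig1 falls further.

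The sequence with the highest level in mycelium, Unigene4844, had 58060 FPKM there, 47.6 in the primordium, 83.5 at the young stage and 78.8 at the mature stage. Despite being 1221-fold, 695-fold and 737-fold lower in these 3 stages, it was still the member with the highest value in the primordium. Unigene230 (2661 nt) had 4177 FPKM in mycelium, 11.6 in the primordium, 6.88 at the young stage and 22.5 at the mature stage. Its fold below mycelium was smallest at maturity, at 185 (174 to 198), and largest at the young stage, at 607 (540 to 685).

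Unigene427 (702 nt) showed the largest difference. It had 3102 FPKM in mycelium and 0.473, 1.48 and 1.72 FPKM in the fruiting stages in order, from 5, 16 and 19 fragments. Its rank among all sequences was 9 in mycelium and 22426 in the primordium. Even at the mature stage, where it was highest of these, it was 1798-fold lower than in mycelium (1151 to 2987). Unigene8842 (510 nt) followed, with 2910 FPKM in mycelium and 1.69, 1.27 and 2.50 FPKM in the fruiting stages. Both were among the 20 highest sequences of the mycelium and under 3 FPKM in every fruiting library.

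Unigene7631, Unigene6335 and Unigene9093 also lay at least 8 below mycelium on the log2 scale and differed by under 2-fold among the fruiting stages. Unigene7631 (511 nt) had 2182 FPKM in mycelium, 1.17 in the primordium, 2.03 at the young stage and 1.12 at the mature stage. Unigene6335 (743 nt) had 1047 FPKM in mycelium and 1.43, 1.14 and 1.37 FPKM afterwards. Unigene9093 (688 nt) had 1702 FPKM in mycelium and 3.28, 3.11 and 3.15 FPKM afterwards, from 34, 33 and 34 fragments, so its fruiting values differed by less than the counting error. Of these, Unigene9093 was the steadiest, at 518-fold, 546-fold and 540-fold below mycelium.

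Unigene5577 (1345 nt) kept more of its level. It had 2281 FPKM in mycelium, 27.3 in the primordium, 20.7 at the young stage and 17.9 at the mature stage, and was 83.6-fold (76.9 to 91.1), 110-fold (100.4 to 122) and 127-fold (115 to 141) lower in these stages. Unigene4743 (1489 nt) went the other way within fruiting, with 1237 FPKM in mycelium and then 0.803, 1.74 and 4.54 FPKM, from 18, 40 and 106 fragments.

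Of the 131 members 6 had no fragments in at least 1 fruiting library. Over all 3946 sequences of at least 15 FPKM in mycelium, members included, this number was 11. The rule selects low fruiting values, so the members' higher share is in part set by it. Unigene9072 was the only member at 0 in all 3 fruiting libraries, and with 16.5 FPKM it was also the member of lowest abundance in mycelium. On its shortest fitting length of 211 nt it had 54 fragments in mycelium. Taking the floor of 3 fragments per library, it was at least 17.4-fold lower in the primordium, 17.8-fold at the young stage and 18.2-fold at the mature stage. A further 5 members were at 0 in 1 fruiting library each.

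At the edge of the rule, on the log2(FPKM + 1) scale, the members just inside it were CL2683.Contig9 (highest fruiting value minus mycelium -4.01), Unigene4581 (-4.01) and Unigene2077 (-4.02). CL2683.Contig9 had 32.1 FPKM in mycelium and 0.782, 0.629 and 1.06 FPKM afterwards. Unigene4581 had 39.7 FPKM in mycelium and 1.26, 1.05 and 1.52 FPKM afterwards. Unigene2077 had 55.2 FPKM in mycelium and 2.45, 2.40 and 1.83 FPKM afterwards. On this scale these 3 members show the weakest contrast that the rule lets in. By FPKM ratio some other members had a weaker one, such as CL96.Contig3, 18.7-fold below mycelium in the primordium against 22.5-fold for Unigene2077.

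Just outside stood Unigene7591 (-3.99), Unigene560 (-3.98) and CL6112.Contig2 (-3.98). Unigene7591 had 134 FPKM in mycelium and 5.71, 7.20 and 7.47 FPKM afterwards. Unigene560 had 59.3 FPKM in mycelium and 1.99, 2.03 and 2.81 FPKM afterwards. CL6112.Contig2 had 59.5 FPKM in mycelium and 2.83, 2.76 and 1.79 FPKM afterwards. Both sets were picked for lying closest to the threshold.

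**Figure D2:**
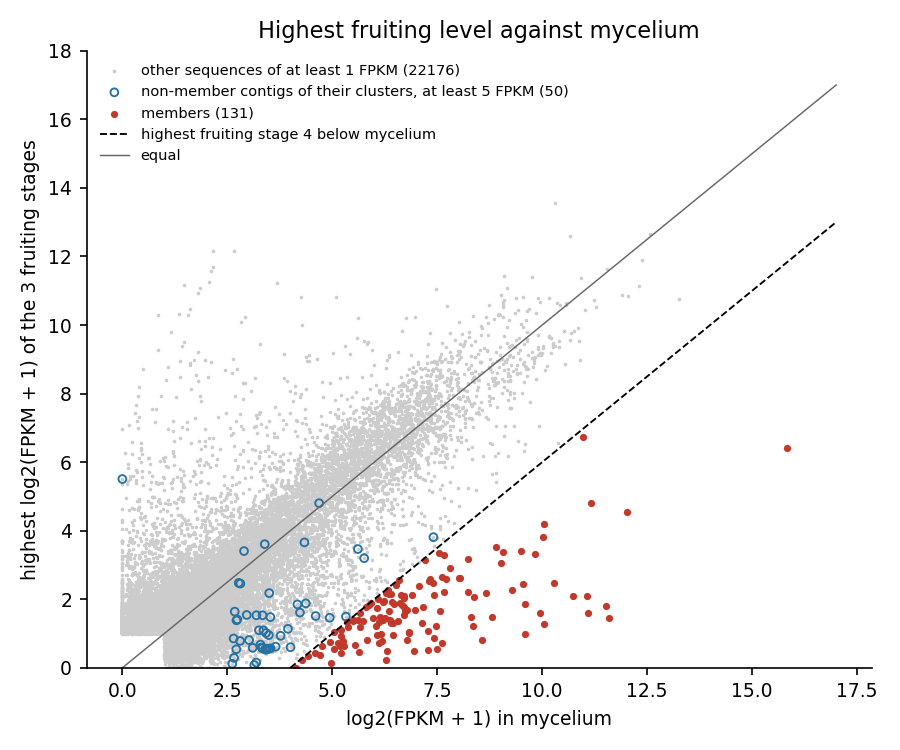
Highest log2(FPKM + 1) of the 3 fruiting stages (vertical) against log2(FPKM + 1) in mycelium (horizontal) for every sequence of at least 1 FPKM in a library. The 131 members (red) lie below the dashed line at a difference of 4 and the main cloud runs along the line of equality, while the open circles mark the 50 other contigs of at least 5 FPKM in the members' clusters.

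Among the fruiting stages 81 members (61.8%) lay within 2-fold in FPKM. For the 3946 sequences of at least 15 FPKM in mycelium the share was 88.6%, so the members were less even. A sequence at 0 in a fruiting stage has no ratio. It counted as outside 2-fold, which held for 6 members and 11 of the 3946. Where a ratio of highest to lowest existed, its median was 1.69 over 125 members and 1.24 over 3935 sequences of the larger set. Depth differed in this comparison, since a member had a median of 25 fragments in the primordium and a sequence of the larger set had 1192.5, and its part in the difference was not tested. The rule caps the highest fruiting value and does not fix differences among the fruiting stages. A member was called between 2 fruiting stages where log2(FPKM + 1) differed by at least 1 and the higher library had at least 5 FPKM. From primordium to young fruit body 2 members were higher and 1 was lower among 18 with sufficient FPKM, 16.7% called, against 4.41% of the 6820 such sequences in the whole table (2.83% higher and 1.58% lower). From young to mature fruit body 3 were higher and 1 was lower among 15, or 26.7%, against 7.26% of 7055 (5.22% higher and 2.04% lower). Between the mature stage and the primordium 4 were higher and 4 lower at maturity among 18, or 44.4%, against 12.5% of 7119 (8.39% higher and 4.09% lower). The members' shares were above the background in all 3 comparisons, but they rest on at most 8 sequences, and the part of their low fragment numbers was not tested. Scaling by upper quartiles or by median ratios turned the last split into 3 higher and 5 lower, and median ratios left 1 higher and 1 lower from primordium to the young stage. The majority, 111 members, were under 5 FPKM in all 3 fruiting stages and could not be called. Of the 20 members that reached 5 FPKM in a fruiting stage 9 were called in at least 1 comparison. The share of all sequences called in at least 1 comparison was not computed.

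Members went both ways, and their median shift was small. From primordium to the young stage 58 were higher and 72 lower by any amount. From the young to the mature stage 70 were higher and 60 lower, and at the mature stage 74 were higher and 56 lower than in the primordium. Such counts were not made over all sequences, and differences of any size include counting error. The median log2(FPKM + 1) difference was -0.05 for the young stage minus the primordium, 0.03 for the mature minus the young stage and 0.07 for the mature stage minus the primordium. Over all sequences of at least 1 FPKM in a library it was 0.03, -0.01 and 0.03. The highest fruiting value was that of the mature stage for 55 members, of the primordium for 47 and of the young stage for 29, with Unigene9072, at 0 in all 3, counted under the primordium. These were 42.0%, 35.9% and 22.1% of the members, against 32.4%, 39.1% and 28.5% of the 3946 sequences of at least 15 FPKM in mycelium.

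Unigene6760 (538 nt) had the largest log2(FPKM + 1) difference between fruiting stages. It had 2012 FPKM in mycelium, 3.09 in the primordium, 66.7 at the young stage and 105 at the mature stage, from 16820, 25, 553 and 885 fragments. It was 21.6-fold higher at the young stage than in the primordium (14.5 to 33.7) and 34.0-fold higher at the mature stage than in the primordium (22.8 to 52.8). It was the member with the highest level at maturity, yet remained 19.2-fold below mycelium there (17.9 to 20.6).

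Another 4 members were called higher late in fruiting. CL6286.Contig1 (1844 nt) had 2.02 FPKM in the primordium, 4.23 at the young stage and 13.03 at the mature stage, and was 6.46-fold higher at the mature stage than in the primordium (4.87 to 8.71). Unigene3675 (2751 nt) had 3.55, 3.92 and 9.59 FPKM in the same order, 2.70-fold higher at the mature stage than in the primordium (2.23 to 3.28). Unigene230 was 3.28-fold higher at the mature than at the young stage (2.86 to 3.75). Unigene4064 (631 nt) had 2.001 FPKM in the primordium and then 5.15 in both later stages, and the interval of its 2.57-fold difference between young fruit body and primordium, 1.49 to 4.62, reached below 2.

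The other 4 called members went down as fruiting proceeded. CL3686.Contig1 (491 nt) had 17.3 FPKM in the primordium, 12.6 at the young stage and 1.30 at the mature stage, from 128, 95 and 10 fragments, and was 13.3-fold lower at the mature stage than in the primordium (7.03 to 28.5). CL2068.Contig5 (1849 nt) had 8.05, 1.51 and 1.14 FPKM, and was 5.33-fold lower at the young stage than in the primordium (3.83 to 7.57). CL3978.Contig3 (1811 nt) had 7.27, 3.98 and 2.04 FPKM, 3.56-fold lower at the mature stage than in the primordium (2.64 to 4.86). CL2900.Contig2 (970 nt) had 5.14, 3.88 and 1.71 FPKM, 3.01-fold lower at the mature stage than in the primordium (1.90 to 4.90).

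**Figure D3:**
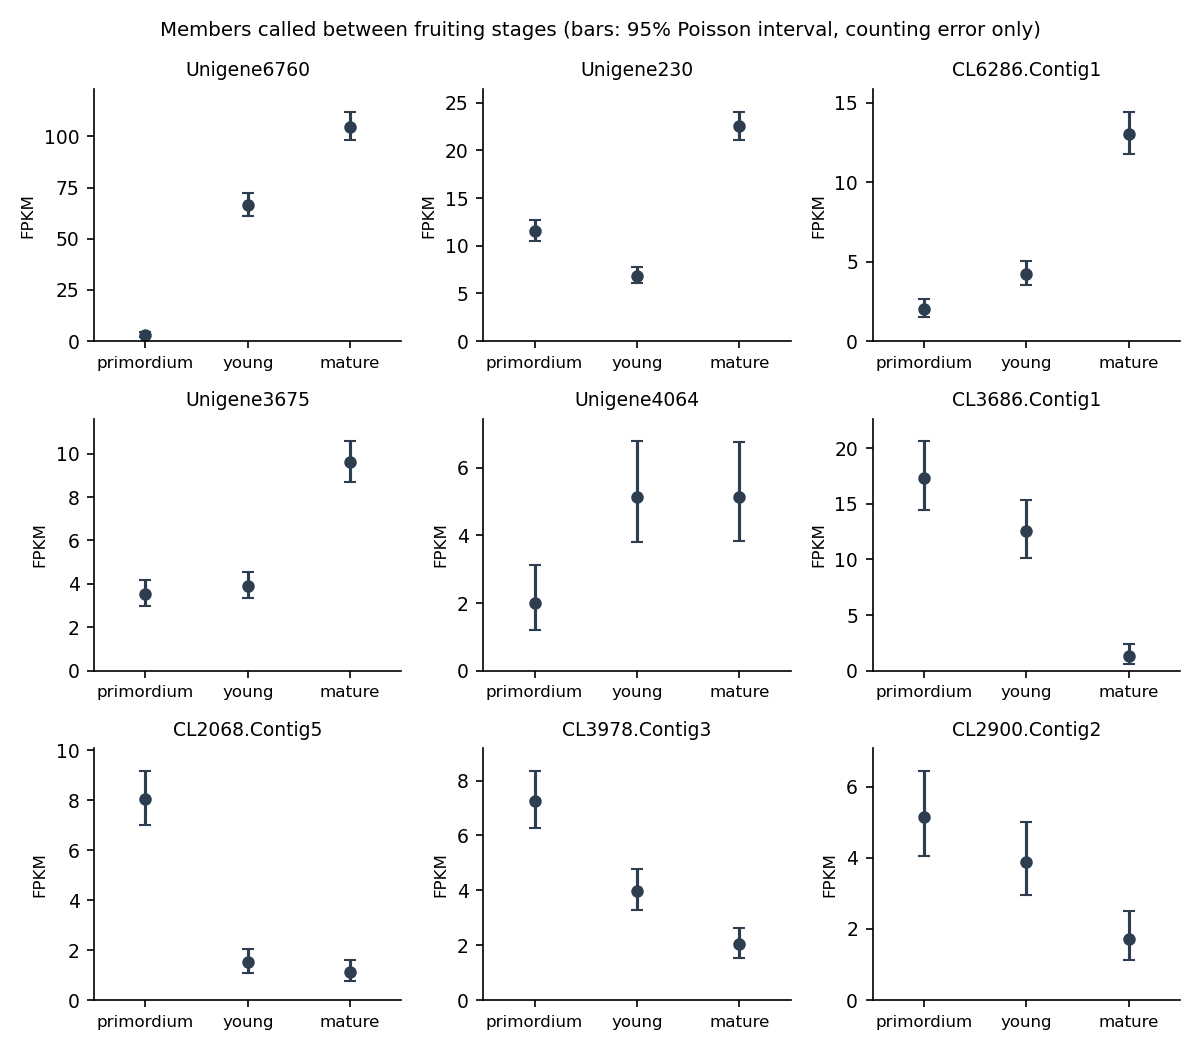
FPKM of the 9 called members in the primordium and at the young and mature stages, on axes that start at 0, with bars for the 95% exact Poisson interval of the fragment count. Unigene6760 has 3.09, 66.7 and 105 FPKM and 4 further members were higher late, whereas CL3686.Contig1, CL2068.Contig5, CL3978.Contig3 and CL2900.Contig2 were lower at the mature stage than in the primordium.

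Below 5 FPKM, 4 members had a counting interval wholly beyond 2-fold, a criterion added after the values were seen. Unigene8843 had 0.116 FPKM in the primordium, from 1 fragment, and 1.78 at the mature stage, from 16, a 15.3-fold higher value with an interval of 2.38 to 643. CL4523.Contig2 had 0.192 FPKM in the primordium and 1.78 at the mature stage, 9.27-fold higher (2.87 to 47.6). Unigene4743 was 5.65-fold higher at the mature stage than in the primordium (3.41 to 9.89). CL1897.Contig4 (5037 nt) had 4.79 FPKM in the primordium and 1.49 at the mature stage, 3.21-fold lower (2.60 to 3.98). At the mature stage against the primordium 6 of 130 members with a fragment were higher and 4 lower by this criterion, where 1.83% and 0.758% of all sequences with a fragment were. From primordium to the young stage 1 was higher and 1 lower (0.464% and 0.241% of all), and from the young to the mature stage 3 were higher and 2 lower (1.04% and 0.373% of all). The background included every sequence with a fragment in either library, 48966 for the mature stage against the primordium. Only 22307 of the 51131 sequences listed reached 1 FPKM in a library. Fragment numbers were not matched, so these shares cannot be compared directly with the members' counts.

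The members comprised 68 contigs, which belong to clusters of related sequences, and 63 single unigenes. Contigs were thus 51.9% of the members and 40.7% of all sequences of at least 15 FPKM in mycelium. Members were shorter, with a median recovered length of 1121 nt (211 to 6044) against 1701 nt (201 to 14235), and 24.4% of them were under 600 nt, against 11.3%. The unigenes among them had a median of 756 nt, against 1491 nt for all such unigenes, and the contigs 1453 nt against 2023 nt. Lengths are the shortest that give whole fragment numbers. Among the members, 7 (Unigene9072 and Unigene8843 included) would also fit other lengths up to 30000 nt that are not multiples of the shortest.

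The 68 contigs came from 58 clusters, of which 49 held 1 member, 8 held 2 and 1 held 3. Summed over all contigs of a cluster, FPKM was at least 4 lower on the log2(FPKM + 1) scale in the highest fruiting stage for 38 of the 58 clusters. The differences ranged from -7.96 to -1.34, so the sum was lower by more than 2-fold on this scale in each of the 58. These sums include the members, which were chosen for their drop, so both counts are in large part set by the rule. In 7 clusters all contigs were members. The same shares over all clusters were not computed. In 32 clusters the members held over 90% of the summed mycelium FPKM, and in 5 they held under 50%. The sources used here do not say how fragments were divided between related contigs. In CL3041, 4 contigs of 2147 to 2348 nt had the same recovered counts of 352, 13, 16 and 15 fragments in the 4 libraries, and a further 2 shared another set of counts. No member had the same 4 counts as another contig of at least 5 FPKM in mycelium in its cluster.

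Contigs that shared a cluster with a member were mostly lower in fruiting as well. Of the 320 such contigs 50 reached 5 FPKM in a library. Of these, 43 (86%) were at least 2-fold lower in all 3 fruiting stages with at least 5 FPKM in mycelium, against 19.7% of the 5084 contigs with 5 FPKM in the whole table. Their median difference between the highest fruiting stage and mycelium was -2.45, against 0.25 over those 5084. The 50 contigs came from 25 clusters, and in 19 of these all contigs with 5 FPKM were lower. CL3041 alone supplied 12 of them, and without it the number was 31 of 38 (81.6%). The low mycelium level of most kept them from the rule, since only 12 had at least 15 FPKM there, of which 10 were at least 2-fold lower in all 3 stages. Sequence shared within a cluster may tie these values to those of the members, and its part was not tested.

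Only 1 of the 50 was at least 2-fold higher in a fruiting stage, 2.0% against 23.8% of all contigs with 5 FPKM. This was CL6317.Contig1 (289 nt), with 0 fragments in mycelium, 1 in the primordium, 198 at the young stage and 156 at the mature stage, or 44.5 and 34.4 FPKM in the last 2. The member of its cluster, CL6317.Contig10 (1080 nt), had 36.2 FPKM in mycelium and 0.246, 0.361 and 0.295 FPKM afterwards. Most of that cluster's mycelium FPKM belonged to neither, but to CL6317.Contig5 (1029 nt), with 169 FPKM in mycelium, 13.04 in the primordium, 1.77 at the young stage and 0.805 at the mature stage.

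Contigs with no drop from mycelium to the fruiting stages stood beside members in a few clusters. CL2550.Contig3 (2084 nt) had 6.45 FPKM in mycelium and 9.60, 8.29 and 9.08 FPKM afterwards, while the member CL2550.Contig1 (2228 nt) had 91.2 FPKM in mycelium and 2.59, 2.71 and 4.38 FPKM afterwards. CL1897.Contig2 (2617 nt) had 9.49, 10.4, 11.2 and 10.3 FPKM over the 4 stages, while the member CL1897.Contig4 had 158, 4.79, 3.74 and 1.49 FPKM. A like pair, picked out after its values were seen, was CL6378.Contig1 (5153 nt), at 24.8, 25.02, 26.5 and 26.9 FPKM, beside the member CL6378.Contig2 (1233 nt), at 49.6, 1.56, 2.001 and 1.81 FPKM. Its cluster had the smallest summed difference of the 58.

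**Figure D4:**
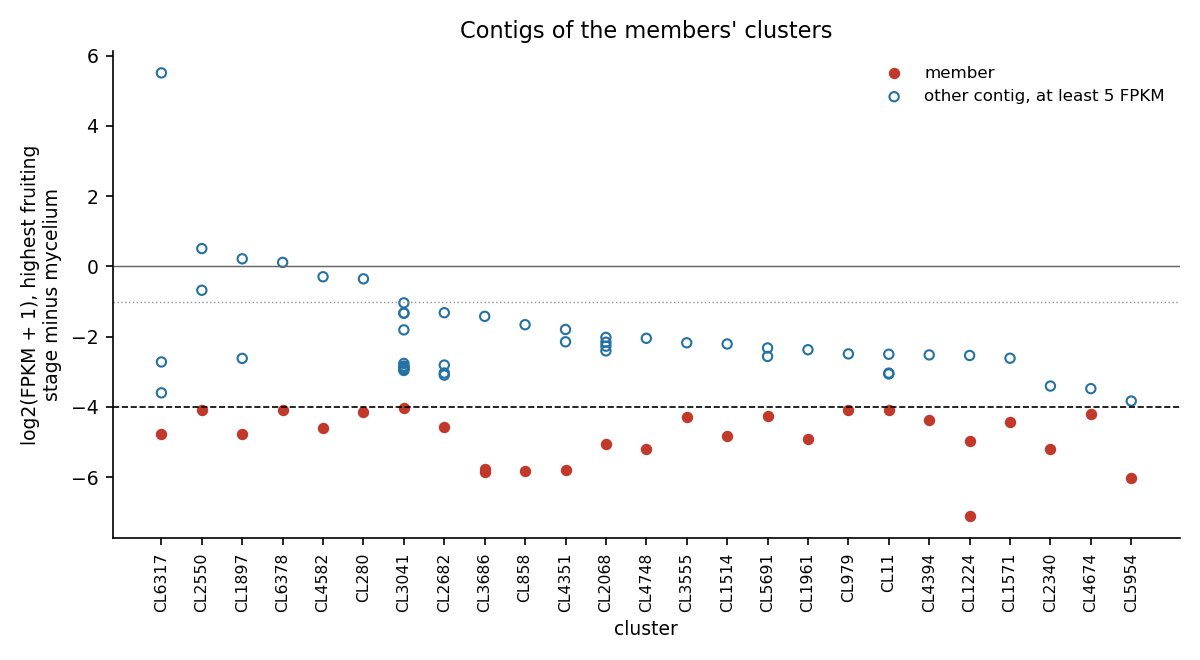
Difference in log2(FPKM + 1) between the highest fruiting stage and mycelium (vertical) for members (red) and for other contigs of at least 5 FPKM (open blue) in the 25 clusters that hold both. Lines mark 0, -1 (dotted) and the rule's -4 (dashed). Most open circles lie below -1, and CL6317 alone has one far above 0.

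Of the 9 clusters with several members, 6 had members whose intervals for the ratio of the mature stage to the primordium overlapped, and 3 (CL6286, CL2900 and CL4705) had members whose intervals did not. Overlap does not show that ratios are equal, and the ratios within a cluster were not tested against each other. CL3978 held 3 contigs, all members, and its summed FPKM fell most of the 58 clusters. CL3978.Contig1 (346 nt) had 2156 FPKM in mycelium and 3.26, 2.06 and 0.737 FPKM afterwards. CL3978.Contig2 (1464 nt) had 380 FPKM in mycelium and 0.772, 0.665 and 0.479 FPKM afterwards. CL3978.Contig3 had 522 FPKM in mycelium and 7.27, 3.98 and 2.04 FPKM afterwards. The values of all 3 were lower at each later stage, although the interval of the ratio of the mature stage to the primordium reached above 1 for CL3978.Contig2 (0.621, 0.263 to 1.40) and not for CL3978.Contig1 (0.226, 0.0552 to 0.692).

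CL3066.Contig4 and CL3066.Contig5 were both higher at the mature stage than in the primordium, by 1.90-fold (1.43 to 2.56) and 1.504-fold (1.02 to 2.25). CL4172.Contig1 and CL4172.Contig2 had ratios of 1.28 (0.495 to 3.44) and 1.54 (0.941 to 2.57), with both intervals reaching below 1. In CL3686, Contig1 was lower as given above, and the ratio of CL3686.Contig4 was 0.360 (0.0615 to 1.498). The members of CL1224 had 0.240 (0.0583 to 0.743) for CL1224.Contig1 and 1.05 (0.624 to 1.79) for CL1224.Contig3, with overlapping intervals.

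CL6286.Contig1 and CL6286.Contig2 (1688 nt) were alike in mycelium, at 1042 and 987 FPKM, and in the primordium, at 2.02 and 2.01 FPKM. In mature fruit body they stood at 13.03 and 1.25 FPKM, with a ratio of the mature stage to the primordium of 6.46 (4.87 to 8.71) for CL6286.Contig1 and 0.621 (0.388 to 0.980) for CL6286.Contig2. CL3773.Contig1 (467 nt) and CL3773.Contig2 (517 nt) had 95.2 and 99.6 FPKM in mycelium, and ratios of the mature stage to the primordium of 2.47 (1.30 to 4.95) and 0.767 (0.372 to 1.56), whose intervals overlapped. CL4705.Contig3 and CL4705.Contig2 had ratios of 2.90 (1.97 to 4.39) and 1.36 (0.984 to 1.89). In CL2900, Contig2 was lower at maturity than in the primordium, as given above, while CL2900.Contig1 (1106 nt) had 0.361, 0.939 and 0.749 FPKM, from 6, 16 and 13 fragments, and a ratio of 2.08 (0.737 to 6.67).

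Members also sat next to each other by unigene number, a property that the rule did not use. Of the 63 unigene members 10 had another member at the number directly before or after, in 3 runs of 3, 2 and 5 members. Among the 38 number neighbours of members that had at least 15 FPKM in mycelium 10 (26.3%) were themselves members, against 2.69% of all 2341 unigenes at that level. The sources used here do not say what the numbers follow, and whether neighbours are pieces of 1 transcript was not tested.

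The longest run was Unigene9257 to Unigene9261, with 180, 122, 76.1, 78.1 and 30.2 FPKM in mycelium. Their highest fruiting values were 0.465, 0.412, 0.181, 0.418 and 0.0999 FPKM, resting on at most 10 fragments in any fruiting library. On either side of the run, Unigene9256 had 0.591 FPKM in mycelium and was no member. Unigene9262 was none either, but with 9.97 FPKM in mycelium and 1.66, 4.22 and 1.91 FPKM afterwards it too was lower in all 3 fruiting stages. Members had 121 number neighbours, 10 of them members themselves, and 5 of the others were at least 2-fold lower in all 3. The share of all unigenes that were so was not computed, so this count is a description only.

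Unigene3674, Unigene3675 and Unigene3676 had 30.04, 717 and 159 FPKM in mycelium, and each was highest at maturity among the fruiting stages, at 0.674, 9.59 and 4.98 FPKM. Their ratios of the mature stage to the primordium were 1.92 (0.514 to 8.70), 2.70 (2.23 to 3.28) and 3.31 (1.66 to 7.19). The intervals lay above 1 for Unigene3675 and Unigene3676. The third run joined Unigene8842, described above as having the second largest difference, and Unigene8843 (449.5 FPKM in mycelium and 0.116, 0.340 and 1.78 FPKM afterwards).

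**Figure D5:**
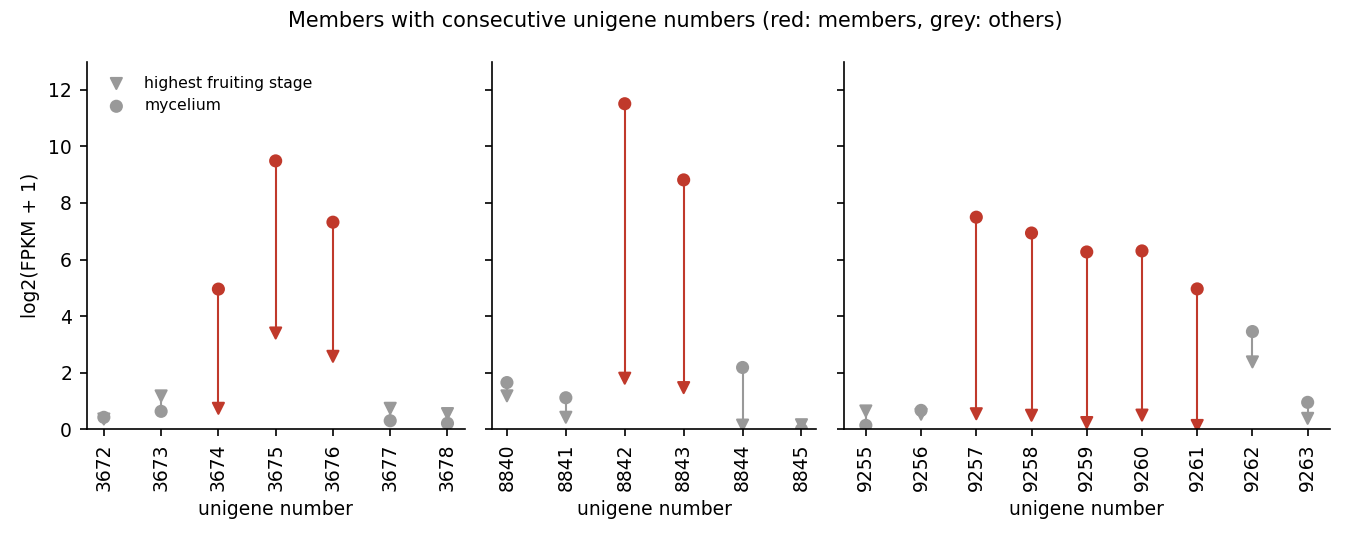
log2(FPKM + 1) in mycelium (circles) and in the highest fruiting stage (triangles) for the 3 runs of members with consecutive unigene numbers and for up to 2 numbers on either side. Members (red) span 4 or more units, whereas the neighbours in grey are low in mycelium, the highest being Unigene9262 at 9.97 FPKM.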

How the data were processed

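The deposited table gives FPKM with 4 decimals, per the file headers. The sources used here do not give the aligner, the counter or the origin of the sequence set. Columns were assigned to stages by the short name in each sample's description, and the suffix "_All" of every identifier is left off.

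Fragment counts, library denominators and lengths of at least 200 nt were recovered from the steps of the FPKM values and tested on simulated data. All 50567 sequences above 0 gave whole counts, back-computed within 5.1e-05 FPKM, a limit that was imposed. Recovered counts can understate the true ones by a common whole factor. They summed to between 98.6% and 98.8% of the denominators and serve for shares, lengths and counting intervals (exact binomial intervals for ratios, exact Poisson intervals for levels, Wilson intervals for shares, all at 95%). Differences are on the log2(FPKM + 1) scale, which shrinks the contrast of low sequences, and each fold of a sequence is the ratio of its FPKM values. Python 3.11.15, numpy 2.4.6, pandas 2.3.3, scipy 1.17.1 and matplotlib 3.10.9 were used.

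The members, the lists and the rule for named sequences were chosen with earlier results of these data known. Named were the 10 members highest in mycelium, the 6 with the largest difference, those at 0 in all 3 fruiting stages, the 4 highest in a fruiting stage, up to 3 called members per direction and comparison, members of clusters with at least 3, the 3 on either side of the threshold and the 3 non-member contigs with the highest difference. All others were named after their values were seen. Alternatives covered pseudocounts, thresholds, minimums, scalings, cluster sums and counting intervals.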

Additional observations from a re-analysis of the deposited data

How the results depend on the processing

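The number of members depended on the pseudocount and the threshold, which admit more or fewer sequences by construction. It was 282 with a pseudocount of 0.1 and 55 with a pseudocount of 5, 313 at a log2 difference of 3 and 64 at 5, and 66 with at least 100 FPKM in mycelium, against 131. It stayed within 1.5 times with median-of-ratios (122), upper-quartile (109) or equal-sum (113) scaling and with at least 20 FPKM (129). Counting intervals wholly beyond 16-fold gave 143, also within this limit, of which 126 were members. This last criterion was added after the data had been seen, as were the interval criterion between fruiting stages and the share without Unigene4844. With sums over clusters the number was 101, made up of 38 of the 58 clusters with a member and the 63 unigenes. Summing could not change the unigenes, so 101 cannot be compared directly with 131 sequences. Upper-quartile scaling shifted the median log2 difference of all compared sequences between primordium and mycelium by 0.17, and the members' median difference was then -4.77, against -4.97. Calls between fruiting stages were few and moved with the minimum, the threshold and the pseudocount. From primordium to young fruit body, 3 became 1 with at least 10 FPKM and 1 at 4-fold. From young to mature fruit body, 4 became 2 with a pseudocount of 5, 8 with no minimum and 1 at 4-fold. Between mature fruit body and primordium, 8 became 4 with a pseudocount of 5, 16 with no minimum, 3 with at least 10 FPKM and 4 at 4-fold. With no minimum, 72 in place of 43 contigs of the members' clusters were lower in all fruiting stages. Leaving out Unigene4844 moved the members' share of fragments to 5.25% in mycelium and to 0.0461%, 0.0459% and 0.0542% in the fruiting stages in order. The 66 log2 differences of 22 named members from mycelium stayed negative in all 330 recalculations, the one closest to 0 being -2.10, with a pseudocount of 5; this is no test, since the members were chosen for these differences. With a median of 25, 23 and 27 fragments per member in the fruiting stages in order, counting error limits which changes between them could be seen. No paired analysis was possible because the 4 stages had 1 library apiece, and for the same reason no replicate could be left out.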
